A study of Mus musculus with 6 samples.

Results

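The 10 genes described here are WNT ligands, secreted inhibitors of WNT signalling and transcriptional targets of the pathway in mouse choroid plexus (ChP). They were taken by symbol, 10 of the 24354 rows of the expression table, and each symbol matched 1 row. The ligands are Wnt5a, Wnt2b and Wnt8b, the secreted inhibitors are Sfrp1, Sfrp2, Frzb, Wif1 and Dkk3, and the targets are Axin2 and Lef1. The study compared adult with embryonic ChP by TRAP-seq, in which ribosomes carrying a tagged subunit are pulled down and the mRNA bound to them is sequenced. All 6 samples carried the genotype FoxJ1:cre x bacTRAP (EGFP:L10a), so that Cre under the Foxj1 promoter switched on EGFP-tagged ribosomal protein L10a, and none received a treatment named in the labels. The adult group was 3 samples at P60 and the embryonic group 3 samples at E16.5. By the study's methods the tissue was lateral ventricle ChP pooled over several adults or several litters per sample, whereas the series record gives 3 mice per age, so what separates replicates of an age is not settled, and p-values measure the spread between these samples only. Foxj1 is a gene of multiciliated cells, among them the ChP epithelium, so the tag marks cells in which that promoter has been active.

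WNT proteins are secreted, lipid-modified ligands that bind Frizzled receptors and, for the β-catenin branch, the co-receptors Lrp5 and Lrp6. Binding stabilises β-catenin, which enters the nucleus and acts with TCF and LEF factors on target genes. Secreted Frizzled-related proteins and Wif1 bind WNT ligands outside the cell, and in the embryo the dorsal midline next to the forming ChP is a source of WNT ligands.

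Values are FPKM as deposited, in which fragments are divided by transcript length and by the mapped reads of the library. FPKM is a level per length, so that genes can be compared within a library. Relative depth was estimated from the smallest increments among low FPKM values, and by it the E16.5 libraries were 4.10 to 5.17 times and the other adult libraries 1.28 and 2.90 times as deep as adult replicate 3. Between 7599 and 11340 genes were above 0 in the adult libraries and between 12761 and 13077 at E16.5. Mir6236 held 32.7% to 51.7% of the summed FPKM of the adult libraries. A listed 0 may be a failed estimate, since Ttr, the transthyretin gene that defines ChP epithelium, was listed at 0 in all 3 E16.5 libraries. The other epithelial markers were above 0 in at least 1 library of each age, and the 15 without Ttr summed to 19925 to 24465 FPKM in adult ChP and 5707 to 6379.6 FPKM at E16.5. Enpp2 alone held 14886 to 18732 FPKM of the adult sums and 242 to 303 FPKM of the E16.5 sums. The difference between the sums therefore rests largely on 1 gene and does not describe the markers as a set. All 16 passed the filter. Of these 6, Ttr among them, were called higher and 3 lower in adult ChP, beside 2.12% and 8.83% of all genes tested. Read equivalents given below assume the longest annotated transcript, would be lower with a shorter one, and cover counting error only, since reads carried no molecular identifiers.

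Among the 10 genes, Lef1 was lower in adult ChP and was the only one to pass the test. Sfrp1 and Axin2 were abundant at both ages, Wnt5a and Dkk3 were low, at most 2.43 and 6.04 FPKM, and the other 5 genes were listed at 0 in all adult libraries. The test was limma on log2(FPKM + 1), adult minus E16.5, over the 11601 genes with a mean FPKM above 1, with Benjamini-Hochberg adjustment to 0.05. Of the 10 genes 5 passed the filter, namely Wnt5a, Sfrp1, Dkk3, Axin2 and Lef1. Of these, 1 was called lower and 0 higher by limma, with the same counts at an unadjusted p under 0.05. Across all genes tested, 8.83% were called lower and 2.12% higher in adult ChP. The median log2 change of the 5 genes was -0.39, beside -0.86 for all genes tested, so that the bulk of genes sat lower in adult ChP on this scale. In 2 of the 5, Wnt5a and Lef1, every adult library lay below every E16.5 library, and in 0 every adult library lay above. Over all genes tested those shares were 31.0% and 7.39%. In bulk libraries, fewer cells of a type and less RNA per cell cannot be told apart.

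**Figure D1:**
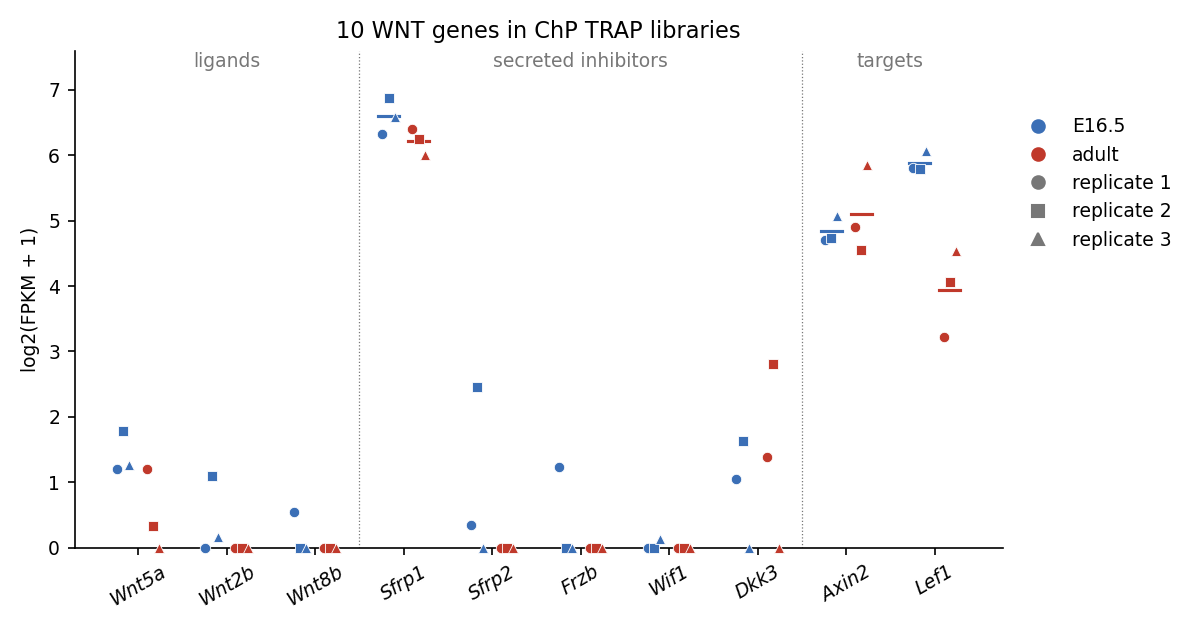
FPKM of the 10 genes in each library on a log2(FPKM + 1) axis, with 1 point per library, adult and E16.5 side by side; short bars are group means and are drawn only for genes above 0 in all 6 libraries. Lef1 separates the ages, with adult libraries at 8.28 to 22.2 FPKM and E16.5 libraries at 54.5 to 66.3 FPKM, while Sfrp1 and Axin2 overlap.

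Wnt5a, a ligand known mostly for β-catenin-independent signalling (GRCm38 chromosome 14, 28504750 to 28527448, plus strand), was the most abundant of the 3 listed ligands. Its FPKM were 1.30, 0.256 and 0 in adult replicates 1, 2 and 3, and 1.30, 2.43 and 1.40 at E16.5. These correspond to about 35, 15 and 0 reads in the adult libraries and 111, 262 and 141 reads at E16.5, but with the shortest annotated transcript of Wnt5a only to 0.275, 0.122 and 0 and to 0.882, 2.08 and 1.12 reads. The values between 0 and 1 are less than a whole read, so they mark a bound set by length and are no count. Every E16.5 library lay above every adult library, but adult replicate 1 and E16.5 replicate 1 were equal to 3 digits. The log2 change was -0.91 (SE 0.59, 95% interval -2.28 to 0.47) and was not called by limma (adjusted p = 0.326), and it turned to 0.0902 after quantile normalization. In adult replicate 3, where it was listed at 0, 3 reads would have been worth 0.144 FPKM.

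Both other listed ligands were seen only at E16.5, in 1 or 2 libraries each. Wnt2b, a ligand of the β-catenin branch (chromosome 3, 104945272 to 104961921, minus strand), was listed at 0, 1.14 and 0.121 FPKM at E16.5, and at 0 in all 3 adult libraries. Wnt8b, a ligand of the embryonic dorsal forebrain (chromosome 19, 44493472 to 44514273, plus strand), was at 0.452 FPKM in E16.5 replicate 1, about 18 reads, and listed at 0 in the other 5 libraries. Both stayed below the filter, so no change was tested and no fold is given. In the adult libraries 3 reads of Wnt8b would have been worth 0.107 to 0.309 FPKM with the longest transcript, below the level of E16.5 replicate 1. With the shortest annotated transcript E16.5 replicate 1 held 3.54 reads, and the adult limits would be higher and may exceed that level.

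The table held 16 further WNT ligand genes, 9 of them at 0 in all libraries, and 2 passed the filter without being called. Wnt9a, the more abundant, was at 0.573, 3.26 and 0 FPKM in adult ChP and 2.40, 5.94 and 5.31 FPKM at E16.5 (log2 change -1.49, limma adjusted p = 0.221). Wnt4, named after its values were seen, had the opposite order, at 7.19, 4.08 and 0 FPKM in adult ChP against 0.946, 0 and 0 FPKM (log2 change 1.47, limma adjusted p = 0.285). Summed over all 19 ligands, the level was 10.8, 7.59 and 0 FPKM in the adult libraries and 5.65, 9.55 and 10.6 FPKM at E16.5. The sums overlapped between the ages, and no ligand was above 0 in adult replicate 3, the shallowest library.

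Sfrp1, a secreted Frizzled-related protein that binds WNT ligands (chromosome 8, 23411502 to 23449632, plus strand), was the most abundant of the 10 genes in every library. Its FPKM were 83.3, 74.8 and 63.0 in adult ChP and 79.6, 117 and 94.8 at E16.5, on about 803 to 2765 and 4160 to 7714 reads. Adult replicate 1 lay above E16.5 replicate 1, so the ages overlapped. The means were 73.7 ± 10.2 FPKM and 97.1 ± 18.8 FPKM (SD, n = 3 each). The log2 change of -0.39 (SE 0.29, 95% interval -1.06 to 0.28) was not called by limma (adjusted p = 0.388), and it was 0.47 above the median of all genes tested. The sign depended on scaling, at -1.21 (adjusted p = 0.0407) with libraries rescaled to the same sum and 0.06 after quantile normalization. With Mir6236 left out of that sum the change was -0.55 (adjusted p = 0.255).

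Sfrp1 held nearly all of the signal of its family at both ages. It made up 98.1%, 91.1% and 99.7% of the summed FPKM of the 5 Sfrp and Frzb genes in the adult libraries and 98%, 96.3% and 100% at E16.5. Sfrp2 (chromosome 3, 83766321 to 83774316, plus strand) and Frzb, also called sFRP3 (chromosome 2, 80411970 to 80447625, minus strand), are related secreted WNT-binding proteins. Sfrp2 was at 0.266, 4.50 and 0 FPKM in the E16.5 libraries, and about 128 of its reads came from replicate 2. Frzb was at 1.35 FPKM in E16.5 replicate 1, about 50 reads, and at 0 in E16.5 replicates 2 and 3. Both were listed at 0 in all adult libraries, where 3 reads would have been worth 0.188 to 0.544 FPKM of Sfrp2 and 0.115 to 0.333 FPKM of Frzb. With the longest transcript, those limits lie below the level seen in the 1 library where each was highest. With the shortest annotated transcript those libraries held 12.9 reads of Sfrp2 and 10.6 of Frzb, and the adult limits would be higher. Whether adult ChP lacked either gene at that level is therefore not settled. Sfrp5, a further family member named after its values were seen, had the opposite order, at 1.65, 7.31 and 0.192 FPKM in adult ChP and 0 in all E16.5 libraries (limma adjusted p = 0.205).

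Wif1, a secreted protein that binds WNT ligands (chromosome 10, 121033960 to 121100650, plus strand), was at 0.0997 FPKM in E16.5 replicate 3, about 3 reads, and listed at 0 in the other 5 libraries. It was therefore not detectable at this depth at either age beyond the floor of 3 reads. Dkk3, a secreted member of the Dickkopf family whose part in WNT signalling is less settled than that of its relatives (chromosome 7, 112116017 to 112159057, minus strand), was at 1.62, 6.04 and 0 FPKM in adult ChP and 1.06, 2.08 and 0 FPKM at E16.5. It was listed at 0 in 1 library of each age, and the ages overlapped. The log2 change was 0.51 (SE 0.87, 95% interval -1.50 to 2.53) and was not called by limma (adjusted p = 0.709).

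**Figure D2:**
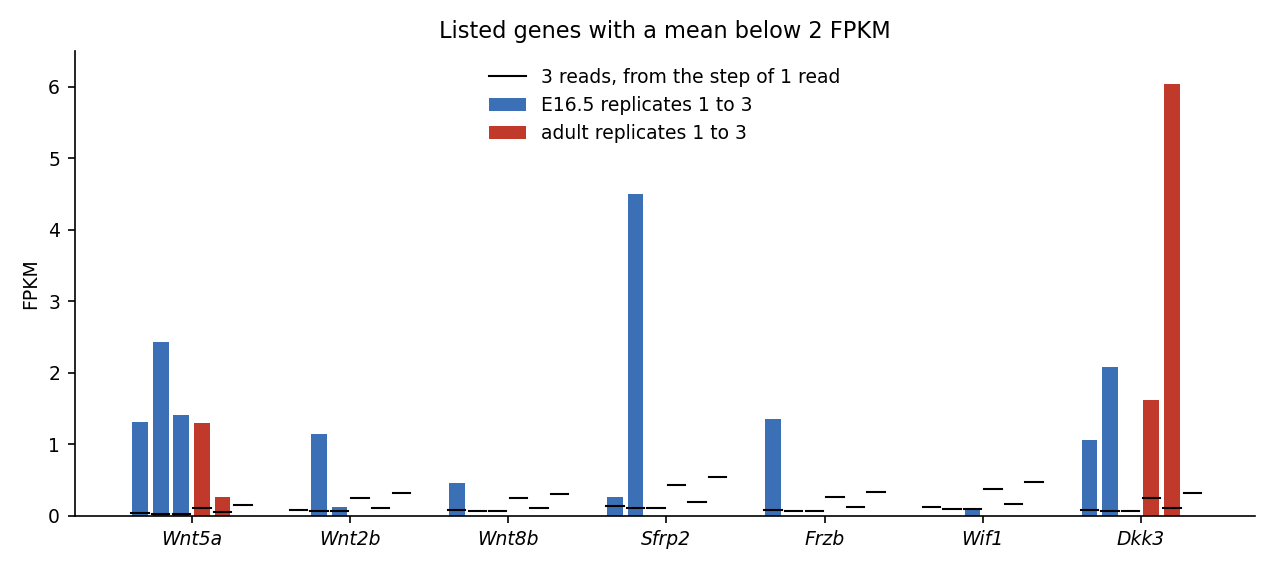
FPKM (linear axis from 0) of the listed genes with a mean below 2 FPKM, with 1 bar per library. E16.5 replicates 1 to 3 are in blue and adult replicates 1 to 3 in red. Short black lines mark what 3 reads of the longest annotated transcript would be worth in that library. Sfrp2 and Wnt2b have their highest values in E16.5 replicate 2 (4.50 and 1.14 FPKM) and Frzb and Wnt8b theirs in E16.5 replicate 1 (1.35 and 0.452 FPKM).

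Of 10 further secreted inhibitors, 6 were at 0 in all libraries, 3 passed the filter and 0 were called by limma, with 0 lower and 1 higher at an unadjusted p under 0.05. That gene was Sostdc1, a secreted antagonist of BMP and WNT signalling and the most abundant inhibitor on the lists. Its FPKM were 475, 832 and 668 in adult ChP and 371, 385 and 262 at E16.5, so every adult library lay above every E16.5 library. The log2 change was 0.94 (SE 0.29, limma adjusted p = 0.0783). Its size depended on scaling, at 0.11 (adjusted p = 0.821) with libraries rescaled to the same sum and 0.77 (0.0907) with Mir6236 left out of that sum. It was 1.28 (0.0265) with median ratios and 1.44 (0.0115) after quantile normalization. Within a library Sostdc1 exceeded Sfrp1 by 5.70, 11.1 and 10.6 times in adult ChP and by 4.66, 3.29 and 2.77 times at E16.5. These ratios do not depend on the scaling of a library, and the adult ones were all above the E16.5 ones (two-sided exact permutation test p = 0.1, the smallest that 3 against 3 allows).

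Axin2, a scaffold of the β-catenin destruction complex and a feedback target of the pathway (chromosome 11, 108920349 to 108950783, plus strand), was at 28.9, 22.5 and 56.8 FPKM in adult ChP and 25.1, 25.8 and 32.6 FPKM at E16.5. Adult replicate 3 was highest and adult replicate 2 lowest of the 6 libraries, so the ages overlapped. The means were 36.1 ± 18.3 FPKM and 27.8 ± 4.16 FPKM (SD, n = 3 each). The log2 change of 0.26 (SE 0.44, 95% interval -0.75 to 1.28) was not called by limma (adjusted p = 0.703). It turned to -0.11 without adult replicate 3 and to -0.55 with libraries rescaled to the same sum, and it was 1.12 above the median of all genes tested. With Mir6236 left out of that sum the change was 0.11.

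Lef1, a DNA-binding partner of β-catenin whose own gene is a target of the pathway (chromosome 3, 131110471 to 131224356, plus strand), was lower in adult ChP. Its FPKM were 8.28, 15.7 and 22.2 in adult ChP and 54.7, 54.5 and 66.3 at E16.5, on about 112, 480 and 235 reads and 2368, 2979 and 3379 reads (4.70, 20.1 and 9.84 and 99.4, 125 and 142 reads with the shortest annotated transcript). The highest adult library was below the lowest E16.5 library, and the adult libraries were the more spread relative to their mean. The means were 15.4 ± 6.97 FPKM and 58.5 ± 6.73 FPKM (SD, n = 3 each). The log2 change was -1.95 (SE 0.43, 95% interval -2.96 to -0.94, limma adjusted p = 0.0336), and -1.10 relative to the median of all genes tested. The exact permutation test gave p = 0.1, its smallest. The change was negative in all 18 alternative settings, from -2.77 to -1.55, but the call held in 9 of them. The settings that ended it included leaving out the first adult library (adjusted p = 0.0530), leaving out any single E16.5 library (0.11, 0.11 and 0.116 for replicates 1, 2 and 3), and scaling by median ratios or quantiles (0.0554 and 0.0570).

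Lef1 was called lower and Axin2 was not, and the difference between them was compared by their ratio within a library, which removes the scaling. Lef1 stood at 0.287, 0.697 and 0.391 times the FPKM of Axin2 in adult ChP and at 2.18, 2.12 and 2.03 times at E16.5. The E16.5 ratios lay close together at 2.11 ± 0.0737, and the adult ones were all lower at 0.458 ± 0.213 (SD, n = 3 each; two-sided exact permutation test p = 0.1, the smallest possible). Set against Sfrp1, Lef1 was at 0.0994, 0.210 and 0.352 in adult ChP and 0.687, 0.466 and 0.699 at E16.5, again without overlap. The ratio of Sfrp1 to Axin2 overlapped between the ages, at 2.88, 3.33 and 1.11 in adult ChP and 3.17, 4.54 and 2.91 at E16.5. The pairs were chosen after the values were seen. Exons of Wnt5a, Sfrp2, Axin2 and Lef1 overlap an annotated gene on the opposite strand (Gm2670, Gm26771, Gm11670 and Gm43352), and whether reads were counted by strand is not given in the sources used here, so those reads cannot be told apart.

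**Figure D3:**
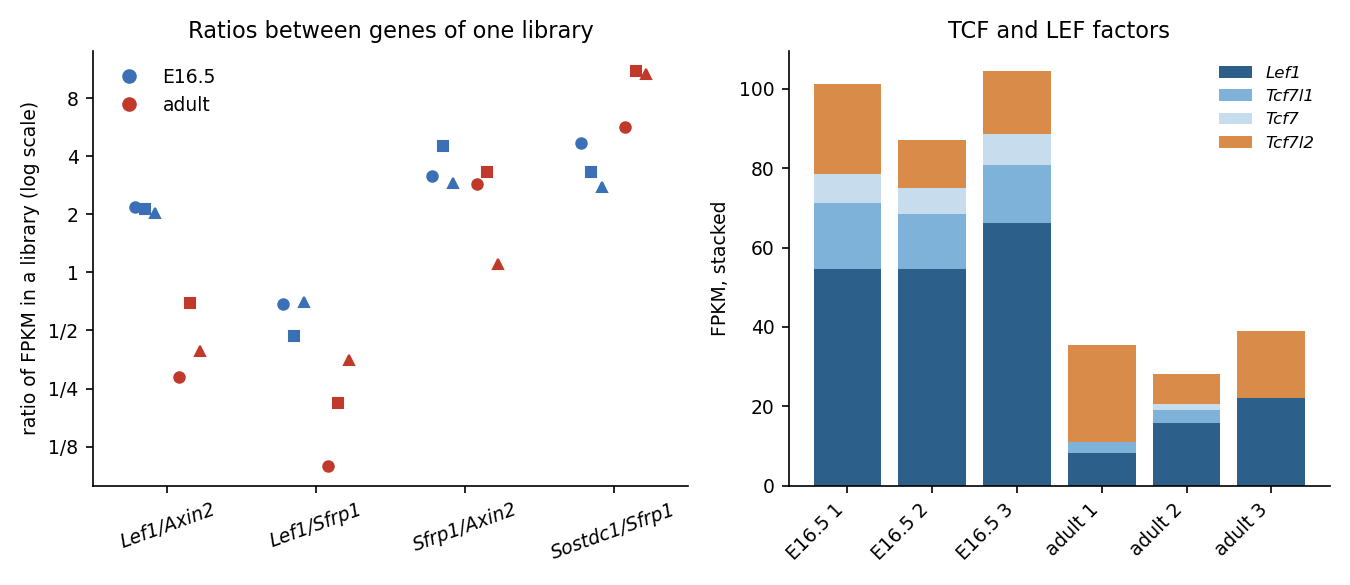
Left, ratios of FPKM within each library on a log axis, with circles, squares and triangles for replicates 1, 2 and 3; right, FPKM of the 4 TCF and LEF factors stacked by library on a linear axis. The Lef1 to Axin2 ratio is 0.287 to 0.697 in adult ChP and 2.03 to 2.18 at E16.5, the Sfrp1 to Axin2 ratio overlaps between the ages, and the stacked sums are 28.0 to 39.1 FPKM in adult ChP and 87.2 to 104 FPKM at E16.5.

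TCF and LEF factors bind DNA at a core of the letters CTTTG, read on either strand. The start-site windows of both targets are printed because Lef1 was called lower and Axin2 was not, with 250 bases before and 50 after a RefSeq transcript start (GRCm38.p6, plus strand, 5′ to 3′). Capitals mark the core, which on the other strand reads CAAAG. The first window is Axin2 at chr11:108920099-108920398, the second Lef1 at chr3:131110047-131110346, and the third a start inside the Lef1 gene at chr3:131156044-131156343.
Axin2: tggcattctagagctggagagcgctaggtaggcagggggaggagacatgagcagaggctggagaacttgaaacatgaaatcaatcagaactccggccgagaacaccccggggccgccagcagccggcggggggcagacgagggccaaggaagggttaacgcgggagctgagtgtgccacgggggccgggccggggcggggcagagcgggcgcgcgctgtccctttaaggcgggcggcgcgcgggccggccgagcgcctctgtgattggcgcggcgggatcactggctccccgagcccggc
Lef1, upstream start: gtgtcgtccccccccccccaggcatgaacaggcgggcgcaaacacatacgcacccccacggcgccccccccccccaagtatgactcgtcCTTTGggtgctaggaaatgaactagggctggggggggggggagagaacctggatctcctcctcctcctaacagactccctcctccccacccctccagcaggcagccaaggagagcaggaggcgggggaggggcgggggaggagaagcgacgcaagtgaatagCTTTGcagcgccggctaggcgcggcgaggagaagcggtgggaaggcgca
Lef1, inner start: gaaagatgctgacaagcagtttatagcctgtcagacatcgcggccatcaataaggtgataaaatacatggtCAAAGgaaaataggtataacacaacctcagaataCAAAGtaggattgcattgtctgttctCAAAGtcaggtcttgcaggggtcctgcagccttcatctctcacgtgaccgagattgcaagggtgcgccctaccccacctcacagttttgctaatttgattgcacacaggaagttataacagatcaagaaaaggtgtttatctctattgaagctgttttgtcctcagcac
The Axin2 window held 0 cores. The upstream Lef1 window held 2 and the inner one 3, of which 1 was followed by letters that made the longer form CTTTGAA or CTTTGAT or CTTTGTA or CTTTGTT, again on either strand, a form that includes the core. In all 32851 RefSeq windows of this length, 53.9% held the core and 16.9% the longer form. RefSeq windows were matched for 7 of the 10 genes, and Lef1 had 4 windows with 1 to 3 cores each. The window of each of Frzb, Wif1 and Wnt8b held 1 core and that of Axin2, Sfrp2 and Wnt2b 0. These matches describe letters and not binding. FPKM are summed over transcripts, so the starts could not be compared between the ages.

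Lef1 was also the main TCF or LEF factor of E16.5 ChP. The 4 genes Tcf7, Tcf7l1, Tcf7l2 and Lef1 summed to 35.5, 28.0 and 39.1 FPKM in adult ChP and 101, 87.2 and 104 FPKM at E16.5, without overlap, on the scale as deposited. Lef1 made up 23.3%, 55.9% and 56.8% of that sum in adult ChP and 54.0%, 62.5% and 63.5% at E16.5, so its share overlapped. Tcf7l2 was at 24.6, 7.36 and 16.9 FPKM in adult ChP and 22.7, 12.2 and 15.9 FPKM at E16.5 (log2 change -0.15, limma adjusted p = 0.866). Its share was 69.3%, 26.2% and 43.2% against 22.5%, 13.9% and 15.2%, each adult library above each E16.5 library. Tcf7 and Tcf7l1 were at or below 3.33 FPKM in every adult library and at or above 6.64 FPKM in every E16.5 library, with limma adjusted p of 0.0509 and 0.0584. The 12 nuclear factors of the pathway tested beside Lef1 included Tcf7, Tcf7l1 and Tcf7l2. Of the 12, 0 were called by limma, with 6 lower and 0 higher at an unadjusted p under 0.05. In 8 of them every adult library lay below every E16.5 library. Over all genes tested, 31.0% had every adult library below every E16.5 library, and 8.83% were called lower and 2.12% higher. The median log2 change of the 12 nuclear factors was -1.23, beside -0.86 for all genes. The one with the highest mean over all 6 libraries was Ctbp2, a corepressor, with a log2 change of -0.86 (adjusted p = 0.194).

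Of 107 further genes of the pathway, 19 were at 0 in all libraries and 71 were tested, of which 5 were called lower and 3 higher by limma (17 and 6 at an unadjusted p under 0.05), beside 8.83% and 2.12% of all genes tested. Their median log2 change was -0.80, beside -0.86 for all genes, 25 had every adult library below and 11 every adult library above, beside 31.0% and 7.39% of all genes tested. The split depended on scaling, with 1 lower and 5 higher under median ratios, 1 and 6 after quantile normalization, and 20 and 2 with libraries rescaled to the same sum. With Mir6236 left out of that sum it was 6 and 3. None of the 8 calls held when any E16.5 library was left out.

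Receptors and ligand secretion held the 3 genes called higher. Of 12 receptor genes tested, 0 were called lower and 2 higher, and of 6 genes of ligand secretion 0 and 1. Of all genes tested, 8.83% were called lower and 2.12% higher. Fzd4, a Frizzled receptor, was at 31.7, 32.8 and 51.2 FPKM in adult ChP and 8.65, 5.24 and 5.63 FPKM at E16.5 (log2 change 2.39, SE 0.45, limma adjusted p = 0.0221). Lrp6, the co-receptor of the β-catenin branch, was at 94.2, 81.3 and 103 FPKM in adult ChP and 25.6, 35.8 and 27.4 FPKM at E16.5 (log2 change 1.63, SE 0.31, adjusted p = 0.0221). Tmed5, a cargo receptor of the early secretory pathway, was at 18.5, 9.62 and 21.9 FPKM in adult ChP and 0.898, 1.05 and 0.649 FPKM at E16.5 (log2 change 3.18, adjusted p = 0.0243). For each of them the lowest adult library was above the highest E16.5 library. Without E16.5 replicate 1, 2 or 3 the adjusted p was 0.0705, 0.0841 and 0.0761 for Fzd4, 0.0835, 0.0657 and 0.0740 for Lrp6, and 0.0951, 0.0886 and 0.0860 for Tmed5, and without adult replicate 1 it was 0.0593 for Tmed5. With libraries rescaled to the same sum, Lrp6 had a log2 change of 0.82 and an adjusted p of 0.113, and without an intensity trend its adjusted p was 0.0553. With Mir6236 left out of that sum its log2 change was 1.48 (adjusted p = 0.0342).

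The share of Fzd4 among the Frizzled receptors was set out by library. It was 44.5%, 38.9% and 61.6% of the summed FPKM of the 10 Frizzled genes in adult ChP and 16.8%, 15.7% and 11.3% at E16.5. Fzd1, named after its values were seen, made up 1.03%, 0.513% and 0% against 10.4%, 13.6% and 21.2%. Both shares separated the ages without overlap (exact permutation test p = 0.1 each, the smallest possible), as did that of Fzd2, while the shares of the other Frizzled genes overlapped. The sum over all 10 was 71.1, 84.2 and 83.1 FPKM in adult ChP and 51.4, 33.5 and 49.7 FPKM at E16.5, which unlike the shares depends on the scaling of a library and was not recomputed under another.

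**Figure D4:**
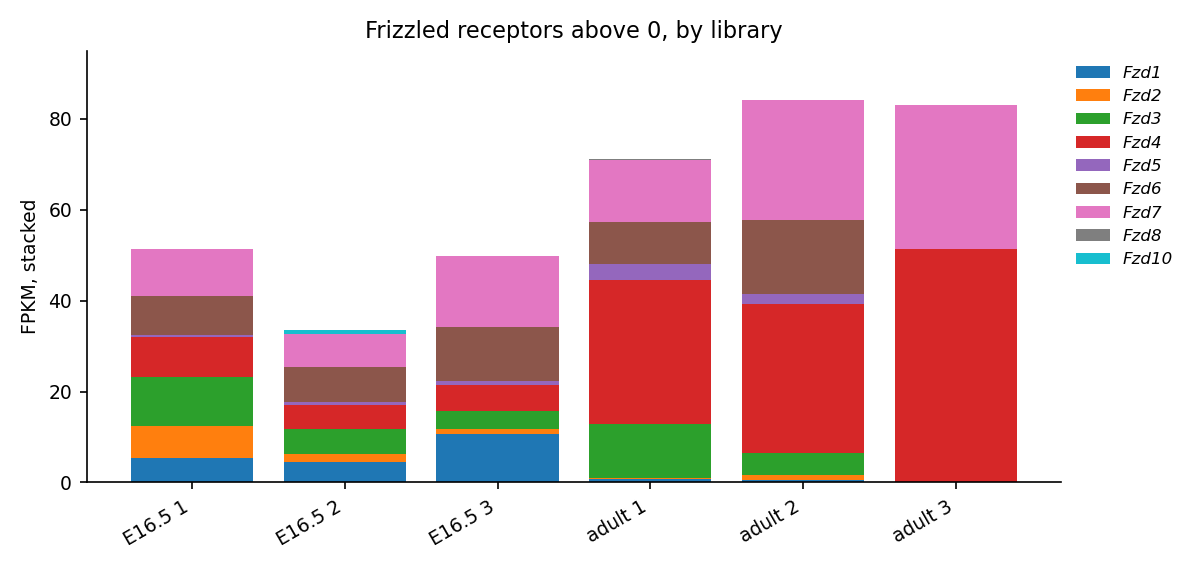
FPKM of the Frizzled receptor genes above 0, stacked by library on a linear axis. Fzd4, in red, makes up 38.9% to 61.6% of the stack in adult ChP and 11.3% to 16.8% at E16.5, and Fzd1, at the base, is at most 1.03% in adult ChP.

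Rspo2, a secreted R-spondin that enhances WNT signalling by keeping receptors at the membrane, was listed at 0 in all adult libraries and at 27.1, 14.1 and 11.8 FPKM at E16.5 (limma adjusted p = 0.0121). It was the only one of 5 tested genes of the R-spondin axis to be called. Beside each list count given here, 8.83% of all genes tested were called lower and 2.12% higher. Of 16 cytoplasmic genes tested, 2 were called lower and 0 higher. Csnk1e, casein kinase 1 epsilon, was at 6.65, 3.05 and 0 FPKM in adult ChP and 32.3, 34.8 and 39.1 FPKM at E16.5 (adjusted p = 0.0337). Tnks2, a tankyrase that marks axin for degradation, had a log2 change of -2.06 (adjusted p = 0.0359). Of 7 further feedback and target genes tested, 1 was called lower and 0 higher. It was Ccnd1, which encodes cyclin D1, at 0, 2.45 and 0 FPKM in adult ChP and 13.6, 17.2 and 8.11 FPKM at E16.5 (adjusted p = 0.0410). Among 11 planar polarity genes Fuz, a planar polarity effector required for cilia, was called lower, at -1.71 (adjusted p = 0.0370), and 0 were called higher. Leaving out E16.5 replicate 1, 2 or 3 ended each of these calls, with adjusted p of 0.0608, 0.0632 and 0.0554 for Rspo2, 0.122, 0.127 and 0.125 for Csnk1e, 0.111, 0.138 and 0.122 for Tnks2, 0.134, 0.137 and 0.0984 for Ccnd1, and 0.141, 0.137 and 0.0818 for Fuz. Leaving out adult replicate 1 gave 0.0617 for Tnks2, 0.0850 for Ccnd1 and 0.0657 for Fuz. Scaling by median ratios or quantiles ended the calls of Csnk1e, Tnks2, Ccnd1 and Fuz, with adjusted p from 0.0518 to 0.0988. Pseudocounts of 0.1 and 0.01 and the fit without a filter gave 0.106, 0.194 and 0.0573 for Csnk1e and 0.0790, 0.129 and 0.0629 for Ccnd1, and the fit without a trend gave 0.0523 for Fuz.

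**Figure D5:**
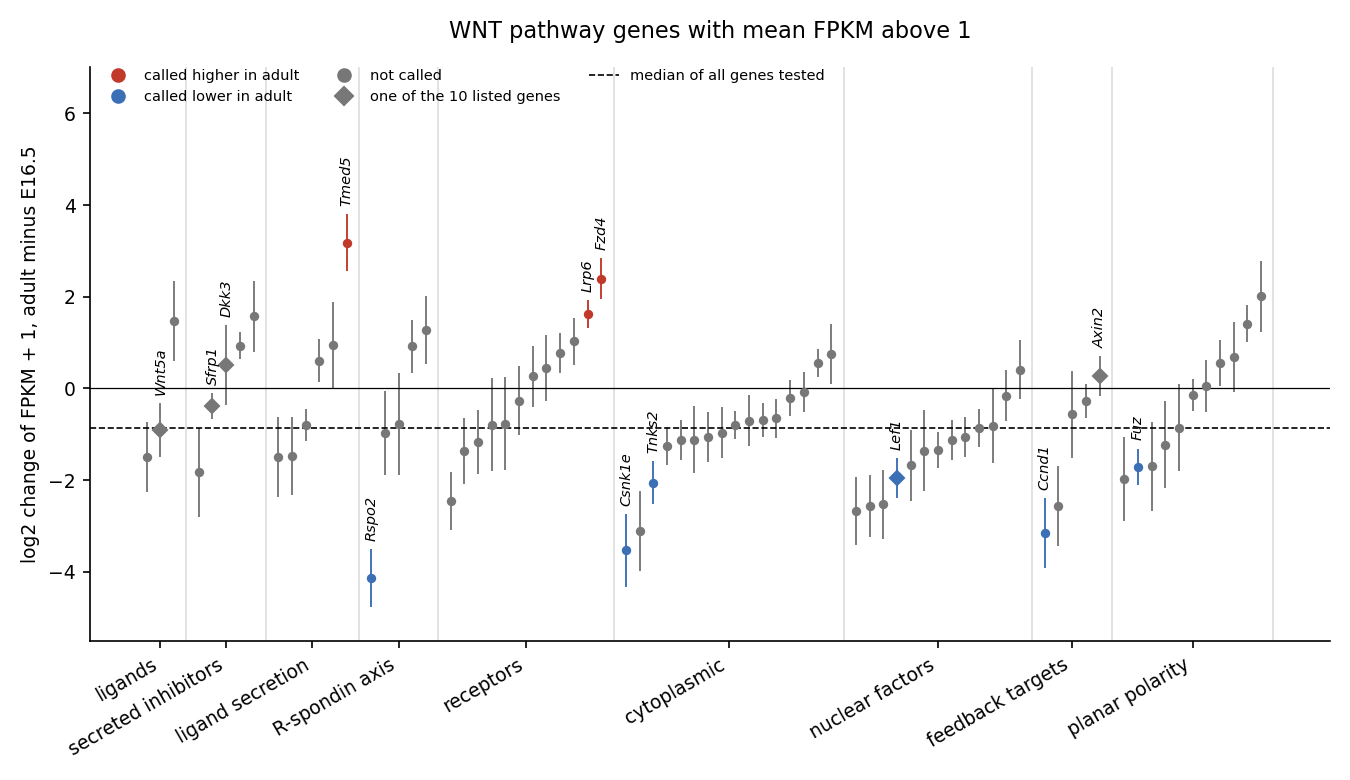
Log2 change of FPKM + 1 (adult minus E16.5) of every pathway gene with a mean FPKM above 1, grouped by role, with bars of 1 SE from limma; red and blue points are genes called higher and lower, diamonds are the listed genes, and the dashed line is the median of all genes tested at -0.86. A gene on several role lists is drawn once, so Lef1 stands with the nuclear factors; Tmed5 lies highest, at 3.18, and Rspo2 lowest.

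Marker lists of other cells, and of motile cilia, were summed by library. The summed FPKM of 14 mesenchymal markers was 22.8, 41.1 and 21.9 in adult ChP and 109, 100 and 122 at E16.5, with Dpt at 0 in all libraries. That of 12 neural progenitor markers was 41.1 to 50.2 FPKM and 263 to 344 FPKM, with Eomes at 0 in all libraries. Vim, the largest part of it at E16.5, held 21.6, 0.553 and 0 FPKM in adult ChP and 141, 144 and 199 FPKM at E16.5. Lmx1a, also a gene of the ChP lineage, held 12.5 to 33.9 and 72.1 to 101 FPKM of that sum. The sum of the motile cilia list, which holds Foxj1 itself and is no list of other cells, was 328 to 481 FPKM and 1157 to 1354 FPKM. Lef1 and Rspo2 moved in the same direction as these sums, as did the bulk of genes tested, whose median log2 change was -0.86. Of all genes tested, 31.0% had every adult library below every E16.5 library, so a shared direction does not set these genes apart. The neuronal sum was 138 FPKM in E16.5 replicate 1 and 22.2 and 20.2 FPKM in replicates 2 and 3, with Neurod6 at 0 in all libraries, and 2.25 to 8.86 FPKM in adult ChP. Map2, the most abundant neuronal marker, was at 39.0, 14.9 and 18.7 FPKM at E16.5 and at 0, 4.53 and 1.12 FPKM in adult ChP. Tubb3, a neuronal tubulin, was at 36.2 FPKM in E16.5 replicate 1 and at most 0.623 FPKM elsewhere. E16.5 replicate 1 was also the only library with Wnt8b and Frzb above 0, while Sfrp2 and Wnt2b were highest in E16.5 replicate 2. The part of these cells in the values of the 10 genes was not tested. Without E16.5 replicate 1 the log2 change of Lef1 was -2.0 and was not called by limma (adjusted p = 0.110).

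Endothelial, mural and macrophage markers were low. Their sums over 12, 10 and 11 genes were 0.489 to 28.4, 4.85 to 14.8 and 0.0695 to 6.82 FPKM in adult ChP, and 17.6 to 42.4, 7.55 to 11 and 0.584 to 8.48 FPKM at E16.5. Esam and Sox17, Tagln, Kcnj8 and Higd1b, and Aif1, Cd68, C1qc, Tyrobp and Fcer1g were at 0 in all libraries. Red cell markers were at 6.49, 0 and 0 FPKM in adult ChP and 324, 54.1 and 108 FPKM at E16.5.

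The genes with the most similar profile over the 6 libraries were found for the listed ligand, inhibitor and target with the highest mean FPKM over all 6 libraries, as the smallest Euclidean distance between log2(FPKM + 1) centred on each gene. For Lef1 they were Pggt1b (distance 0.325), Lmx1a (0.332) and Nedd9 (0.397). For Sfrp1 they were Nfib (0.230), Spen (0.250) and Sbno1 (0.274), and for Wnt5a Rfx7 (0.369), Ssx2ip (0.371) and Wwtr1 (0.373). Lmx1a, a transcription factor of the dorsal midline and ChP lineage, was at 12.5, 19.1 and 33.9 FPKM in adult ChP and 72.1, 86.8 and 101 FPKM at E16.5, the same order of adult libraries as Lef1. With 6 libraries a short distance describes these profiles only.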

How the data were processed

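TRAP-seq libraries of 3 adult (P60) and 3 E16.5 ChP samples were grouped by their labels. The deposited FPKM were made by the authors from single-end reads with STAR 2.4.0, Cufflinks (Cuffquant) and mm10, per the submitters' processing notes and the study's methods. The annotation given to Cuffquant is not given in the sources used here. The table held 0 columns of other samples.

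The test was limma 3.58.1 (R 4.3.3) on log2(FPKM + 1), without covariates and with a trend on intensity. It took in the 11601 of 24354 rows whose mean FPKM exceeded 1, and p was adjusted over all of them. A fold on this scale understates that of low genes. Exact permutation tests were run on single values. The fit was tested on simulated data. Alternatives were 18 settings of pseudocount, filter, scaling, model, threshold and left-out libraries.

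The 10 genes and all lists were chosen with earlier results of these data known. Named beside them were up to 3 called genes per role list and direction, else the most abundant, and the 3 nearest profiles. The 2 most abundant markers of the epithelial, neuronal and neural progenitor lists were named too. Wnt4, Sfrp5, Fzd1, the TCF factors, the zero-level markers, and the ratios and shares were named after their values were seen.

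Depth was estimated from 2524 genes with a single transcript, at its length minus 200 bases. Of low values, 62.2% to 70.7% lay within 0.1 of a whole read, so reads were not recovered and no count test was run. Coordinates are from GENCODE M21 and start-site windows from RefSeq, both GRCm38.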

Additional observations from a re-analysis of the deposited data

How the results depend on the processing

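Of the 10 listed genes, 1 was called lower in the fit as reported. That count was 0 with scaling by median ratios, 2 with libraries rescaled to the same sum (Sfrp1 joining Lef1), 0 after quantile normalization, 0 without a trend and 0 at a threshold of 0.01, and it ran from 0 to 1 when 1 library was left out. No listed gene was called higher in any of the 18 alternatives. With Mir6236, the most abundant gene, left out of the sum, the listed count was 1. The pathway counts were then 6 lower and 3 higher, and the counts over all genes 1182 lower and 181 higher. The labels do not say that replicate numbers pair the samples. Deviations of same-numbered libraries correlated at 0.000895, 0.0439 and 0.015, and those of libraries with different numbers at -0.0292 to 0.0135. With 3 libraries per age these values cannot exclude a shared batch. With the replicate block the listed count was 0, the pathway counts were 1 lower and 0 higher, and the counts over all genes 452 lower and 112 higher. The pathway count of 5 lower was 3 with a pseudocount of 0.1, 3 with 0.01, 3 without a filter, 1 with median ratios, 20 with the same sum, 1 after quantile normalization, 8 with sample weights, 0 at a threshold of 0.01 and 0 to 8 with 1 library left out. The pathway count of 3 higher was 5 with median ratios, 6 after quantile normalization, 0 at 0.01 and 0 to 3 with 1 library left out. Over all genes, 1024 were called lower and 246 higher. The lower count was 660 with median ratios, 3099 with the same sum, 449 after quantile normalization, 132 at 0.01 and 16 to 1704 with 1 library left out. The higher count was 114 with the same sum, 466 after quantile normalization, 158 without a trend, 56 at 0.01 and 27 to 357 with 1 library left out. The log2 change of Wnt5a turned to 0.0902 and that of Sfrp1 to 0.0607 after quantile normalization. That of Axin2 turned to -0.55 with the same sum but was 0.11 with Mir6236 left out of the sum. With 1 library left out the change of Axin2 ran from -0.11 to 0.54, below 0 only without adult replicate 3. Every fit with a library left out had 5 libraries. Over all genes, the lower count was 541, 1704 and 1364 without adult replicates 1, 2 and 3. It was 25, 16 and 65 without E16.5 replicates 1, 2 and 3. The cause was not tested. Depth limits the genes listed at 0 in adult ChP most, since the adult libraries were the shallowest.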
